A study of Ovis aries with 26 samples.

Results

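Aminoacyl-tRNA synthetases are the enzymes that join each amino acid to its transfer RNA, the step that sets which amino acid a codon is read as. Mammalian cells run this step in 2 places. One set of enzymes charges tRNAs in the cytosol, where most proteins are made. A second set, encoded by other nuclear genes whose names mostly end in 2, is imported into mitochondria and serves the few proteins that mitochondrial DNA encodes. Asparagine synthetase (ASNS) makes asparagine from aspartate with nitrogen from glutamine, and with many cytosolic synthetases it is a known target of ATF4, the transcription factor that acts when amino acids are short. The roles given here are known mainly from human and mouse. Genes were taken by name: a letter followed by ARS and an optional 1 or 2, and in addition EPRS1, FARSA, FARSB and ASNS. This gave 37 of the 30186 genes in the table. They were 18 cytosolic synthetase genes, 2 genes that give both the cytosolic and the mitochondrial enzyme (GARS1 for glycine and KARS1 for lysine), 16 mitochondrial synthetase genes and ASNS. The mitochondrial histidine enzyme, HARS2, was not analysed here.

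Oocytes and embryos of sheep, the embryos made by in vitro fertilization and then cultured, gave 26 libraries of poly(A) RNA, prepared from lysed samples by a full-length method of the Smart-seq2 type. The 8 groups were MII oocytes (mature oocytes, arrested in the second meiotic division; n = 2), 2-cell (2C; n = 4), 4-cell (4C; n = 3), 8-cell (8C; n = 4) and 16-cell embryos (16C; n = 3), morulae (n = 3), early blastocysts (EarlyB; n = 3) and expanded blastocysts (ExpB; n = 4). No treatment, allele or breed is named in the labels for any group, which also leave out how many oocytes or embryos went into a library and which animals they came from. In sheep the embryonic genome is known to become broadly active at about the 8- to 16-cell stage, so that RNA before it is largely stored by the oocyte. In libraries of poly(A) RNA, a change in the amount of an RNA and a change in its poly(A) tail cannot be told apart. Levels are FPKM, a read count corrected for gene length and for library depth. Comparisons between genes are therefore rough and rest on the gene lengths used. A level written with ± is a stage mean with its SD, and a list in the order MII to ExpB holds stage means.

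Libraries held about 16050000 to 35560000 assigned reads (recovered from the FPKM), fewest in blastocysts. The oocyte genes GDF9, BMP15, ZP2, ZP3 and FIGLA summed to 2.07 to 9.53 FPKM in ExpB and to 2100.4 to 2171 FPKM in MII oocytes. The trophectoderm genes CDX2, KRT18, KRT19, GATA3 and TFAP2C summed to 771 to 2084 FPKM in ExpB and to 5.22 to 5.67 in MII, where CDX2 and KRT18 were at 0, and the inner cell mass genes to 42.9 to 65.8 FPKM in ExpB and 0.723 to 1.60 in MII. Cumulus and granulosa genes, of which 10 of 12 were in the table, summed to 44.1 to 45.0 FPKM in MII, 62.4 to 258 in 2C, 198 to 622 in 4C and 30.2 to 39.4 in ExpB, and 5 sperm genes stayed at or below 9.77 FPKM in every library. The part of these cell types in the results was not tested. One library stood apart. Replicate 3 of the 16C embryos had a mean correlation of 0.918 with the other 16C libraries, against 0.938 and 0.943 for those, and several members below were unlike in it. Values without it are given beside some of the results it moves, not beside all. Differences are later minus earlier stage on the log2(FPKM + 1) scale, with SE, from limma's moderated two-sided test over 15766 genes, all 37 members among them. A gene is called higher or lower, or said to have risen or fallen, where its adjusted p was under 0.05 and its difference at least 1. Nothing in the labels says that replicates came from separate cultures or animals, so each p-value reflects the spread of the libraries used, part of which may be technical.

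**Figure D1:**
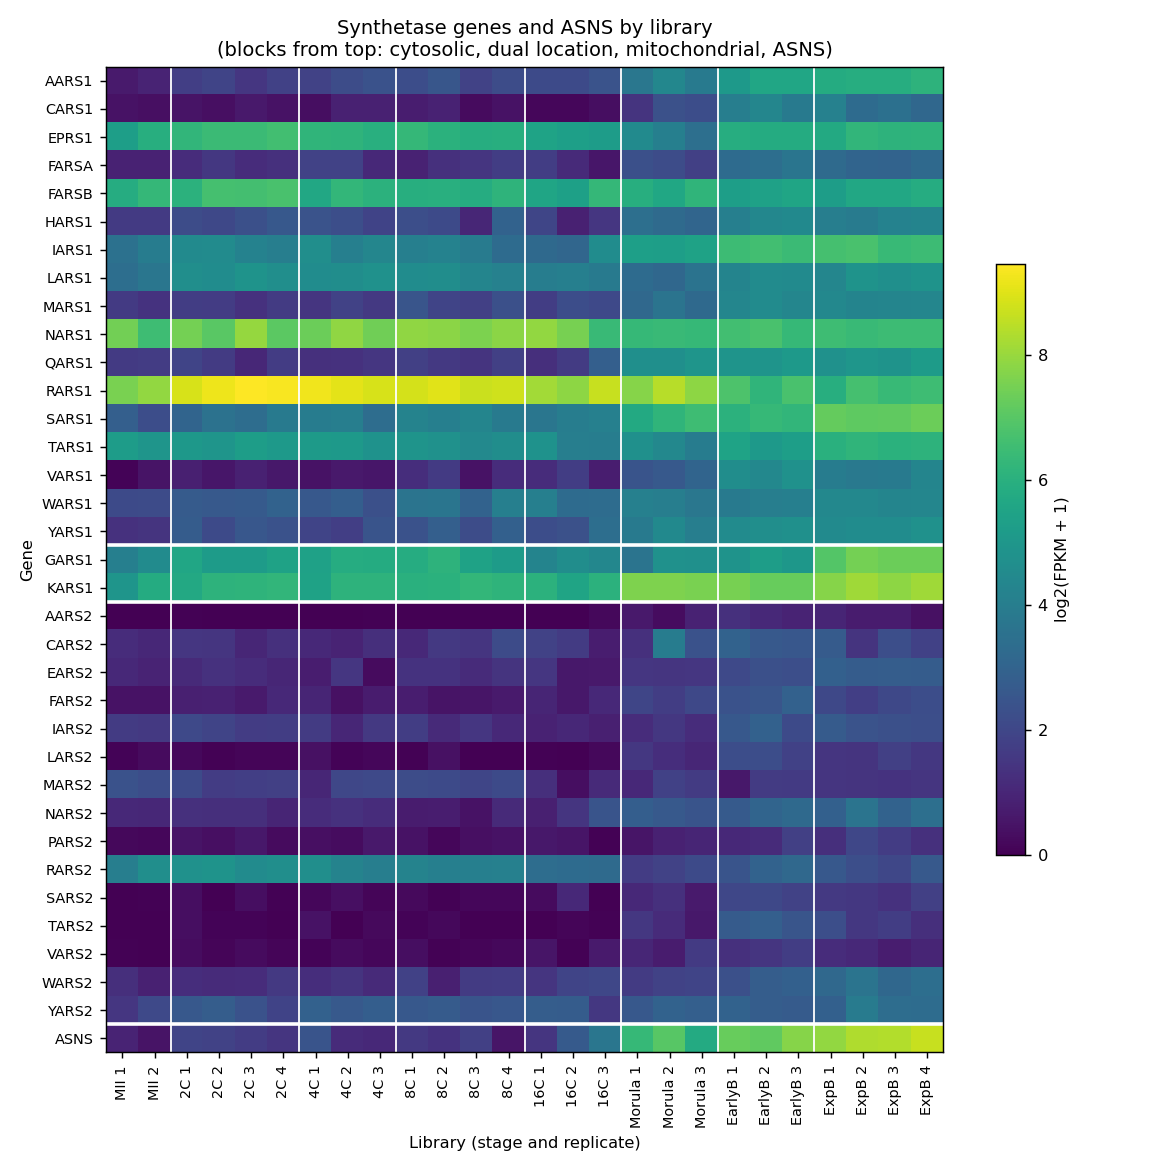
Level of 35 of the 37 genes, log2(FPKM + 1) as colour, in each of the 26 libraries (columns, by stage and replicate), with white lines between stages and between the classes. RARS1 and NARS1 are the brightest rows before the morula stage, ASNS is bright in ExpB (241 to 398 FPKM) and dark in MII, and most mitochondrial rows stay dark.

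Most changes in the cytosolic set fell at 2 steps, 16C to morula and morula to early blastocyst. In morulae against 16C embryos 10 of the 18 cytosolic synthetases were higher and 1 was lower, where 43.1% of all tested genes were called (28.1% higher, 15.0% lower). Without 16C replicate 3 the split was 10 higher and 2 lower. In EarlyB against morulae 9 were higher and 1 was lower, against 27.0% of all genes (14.7% higher, 12.4% lower). The earlier steps held few calls: 3 cytosolic genes were higher in 2C than in MII (6.45% of all genes called, 4.44% higher and 2.01% lower), none was called in 4C against 2C (0.00634% of all genes), 1 was higher in 8C than in 4C (0.907% of all genes, 0.577% higher) and none was called in 16C against 8C (7.55% of all genes, 5.54% higher and 2.01% lower). At the last step, ExpB against EarlyB, 1 was higher (17.7% of all genes, 4.65% higher and 13.1% lower). Over the whole period 14 were higher in ExpB than in MII, RARS1 was lower, and EPRS1, FARSB and NARS1 were not called, where 53.7% of all genes were called, 32.8% higher and 20.9% lower. In bulk samples, fewer cells of a type and less RNA per cell cannot be told apart.

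The median difference of the 18 cytosolic genes was 1.41 in morulae against 16C, beside 0.32 over all tested genes, 0.98 in EarlyB against morulae, beside 0.03, and 2.38 in ExpB against MII, beside 0.33. For the 16 mitochondrial genes the medians were 0.57, 0.71 and 1.38 in the same contrasts. Of these 16 genes, 5 were higher and 1 lower in morulae than in 16C embryos, where 28.1% of all genes were higher and 15.0% lower. In EarlyB against morulae 3 were higher and none lower, or 18.8%, beside 14.7% of all genes higher and 12.4% lower (27.0% called). In ExpB against MII 9 were higher and 1 lower, 62.5% called beside 53.7% of all genes (32.8% higher, 20.9% lower). No mitochondrial gene was called in 2C against MII, 4C against 2C, 8C against 4C or ExpB against EarlyB. Of all genes, 6.45%, 0.00634%, 0.907% and 17.7% were called there. In 16C against 8C, 1 mitochondrial gene was lower, where 7.55% of all genes were called (5.54% higher, 2.01% lower). The share called in either direction in morulae against 16C was 61.1% of the cytosolic genes and 37.5% of the mitochondrial ones. These lie above and below the 43.1% of all genes. The gap between the classes depends on the scale. Adding 1 to FPKM compresses differences of genes near or under 1, where many mitochondrial synthetases lay up to 16C. With 0.1 added in place of 1, 11 cytosolic and 10 mitochondrial genes were higher in morulae than in 16C, with medians of 1.60 and 1.31, and the ExpB minus MII medians were 2.92 and 2.76. The shares and medians of all genes given above are for 1 added and cannot be set beside these values. Other scalings put the median of all genes in morulae against 16C at 0.18 (TPM), 0.19 (median-ratio) or -0.01 (quantile). The cytosolic split in that contrast was then 10 higher and 3 lower, 10 and 2, or 9 and 2, and the mitochondrial split 2 and 1, 1 and 1, or 0 and 1. In ExpB against MII, with medians of all genes of 0.21, 0.22 and 0.03, the mitochondrial split was 10 and 2, 9 and 2, or 7 and 2. The shares of all genes called on these scales are not given here, so the splits cannot be set against them.

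**Figure D2:**
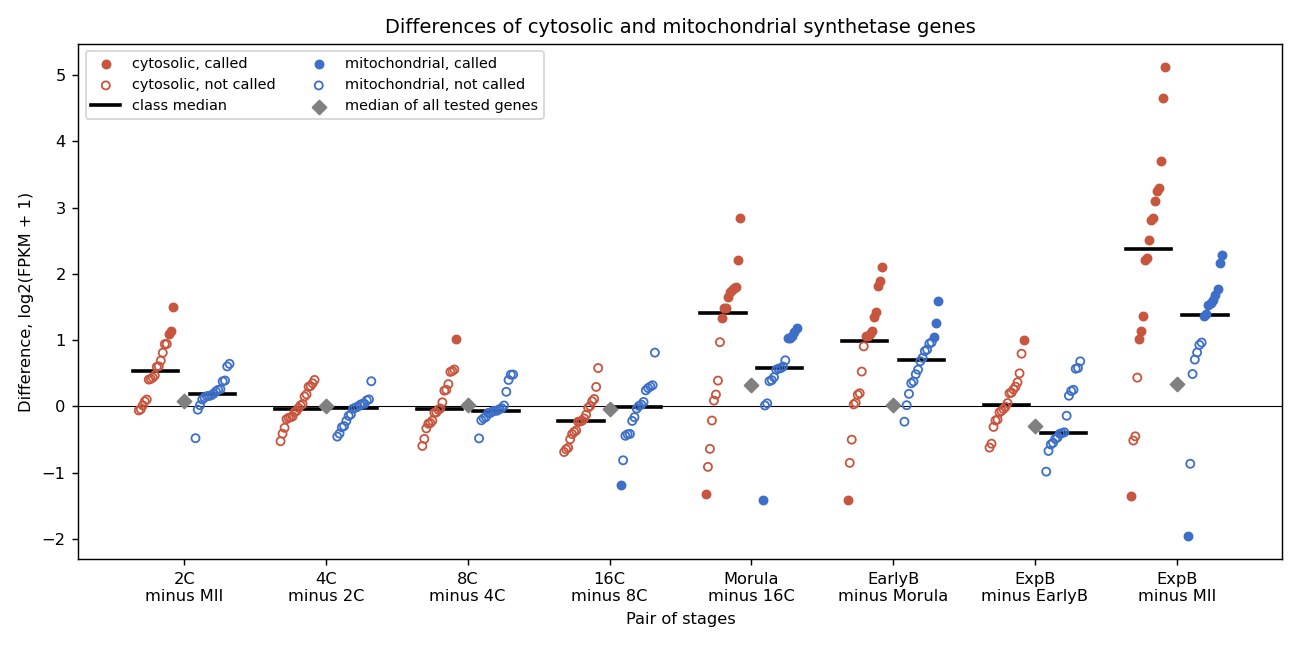
Difference of each cytosolic (red) and mitochondrial (blue) synthetase gene on the log2(FPKM + 1) scale for 8 pairs of stages, later minus earlier. Filled points were called, open points were not, black bars are class medians and grey diamonds the median of all tested genes. The cytosolic median stands at 1.41 in morulae against 16C and the mitochondrial one at 0.57.

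Many cytosolic synthetases work in the multisynthetase complex, a particle that in mammals holds 8 of these enzymes, among them those encoded by EPRS1, IARS1, KARS1, LARS1, MARS1, QARS1 and RARS1 on 3 scaffold proteins. RARS1, the arginine enzyme, was the highest of all members before the blastocyst. Its libraries had 472, 591, 699 and 657 FPKM in 2C embryos, against 184 and 239.9 FPKM in MII oocytes. Every 2C library was above both MII libraries, and the difference was 1.503 ± 0.25 (limma adjusted p = 0.00047). RARS1 fell to 111, 71.7 and 105 FPKM in EarlyB, against 210.1, 342 and 227 FPKM in morulae (difference -1.42 ± 0.24, limma adjusted p = 4.2e-05), again with no overlap. That difference was -0.97, short of the threshold, after quantile normalization. It averaged 83.3 ± 17.4 FPKM in ExpB and 212 ± 39.2 FPKM in MII (-1.35). The gene made up 38.7%, 55.9%, 54.3%, 49.6%, 44.2%, 36.0%, 13.0% and 9.70% of the summed cytosolic FPKM from MII to ExpB. The sum without RARS1 was 336, 474, 448, 465, 375, 456, 642 and 771 FPKM from MII to ExpB.

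EPRS1, whose product joins both glutamate and proline to their tRNAs, dipped in the morula. Its FPKM was 22.2, 16.1 and 9.86 in morulae, against 43.96, 39.3 and 36.8 in 16C embryos (difference -1.33 ± 0.21, limma adjusted p = 1.3e-05). It then rose to 57.5, 55.3 and 55.9 in EarlyB (difference 1.82 ± 0.21 from morulae, limma adjusted p = 5.2e-07). All 3 morula libraries lay below every library of the other stages. LARS1, the leucine enzyme and a leucine sensor for mTORC1 in human cells, averaged 10.9, 25.1, 24.6, 20.53, 15.0, 9.29, 20.8 and 25.2 FPKM from MII to ExpB. It was higher in 2C than in MII (1.14) and in EarlyB than in morulae (1.09), and its morula minus 16C difference of -0.64 was short of the threshold. The EarlyB call of LARS1 ended without morula replicate 2 (0.999), and its ExpB minus MII call (1.13) without MII replicate 1 (0.996). Under median-ratio scaling the LARS1 differences were 0.89 in 2C against MII, 0.97 in EarlyB against morulae and 0.85 in ExpB against MII, none of them called.

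Other enzymes of the complex went the opposite way in the morula. QARS1, for glutamine, had 25.2, 24.8 and 29.6 FPKM in morulae, against 1.43, 2.15 and 6.27 in 16C embryos (difference 2.85 ± 0.27, limma adjusted p = 1.1e-08). No 16C library reached a morula library, although 16C replicate 3 stood well above the other 16C libraries and the difference was 3.31 without it, and QARS1 then stayed between 26.4 and 35.3 FPKM in every blastocyst library. IARS1, for isoleucine, had 39.7, 37.9 and 42.9 FPKM in morulae against 8.27, 7.64 and 23.2 in 16C, and 87.9, 94.8 and 86.6 FPKM in EarlyB. It rose at both steps (1.72 and 1.14) with no overlap between the stages, and the first of these differences was 2.20 without 16C replicate 3. MARS1, for methionine, averaged 9.26 ± 1.77 FPKM in morulae and 3.08 ± 0.679 in 16C (1.33), and 20.3 ± 1.83 in EarlyB (1.06 from morulae). The EarlyB call of MARS1 is at the threshold and ended without morula replicate 1 (0.99) or EarlyB replicate 2 (0.99), and with median-ratio scaling (0.95). Its morula call ended with quantile scaling (0.96).

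The scaffolds of the complex were listed beside its enzymes. AIMP1 had 379, 461 and 469 FPKM in morulae, against 13.9, 23.9 and 220.3 FPKM in 16C embryos (difference 3.32 ± 0.53, limma adjusted p = 1.2e-05). The groups did not overlap, and the highest of the 16C values was that of replicate 3, without which the difference was 4.50. AIMP2 was also higher in morulae (41.9 ± 1.79 FPKM against 15.9 ± 6.82 in 16C, 1.42). EEF1E1, the third scaffold (also called AIMP3), averaged 57.5 ± 8.72 FPKM in morulae and 39.2 ± 21.98 in 16C and was not called (0.66).

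**Figure D3:**
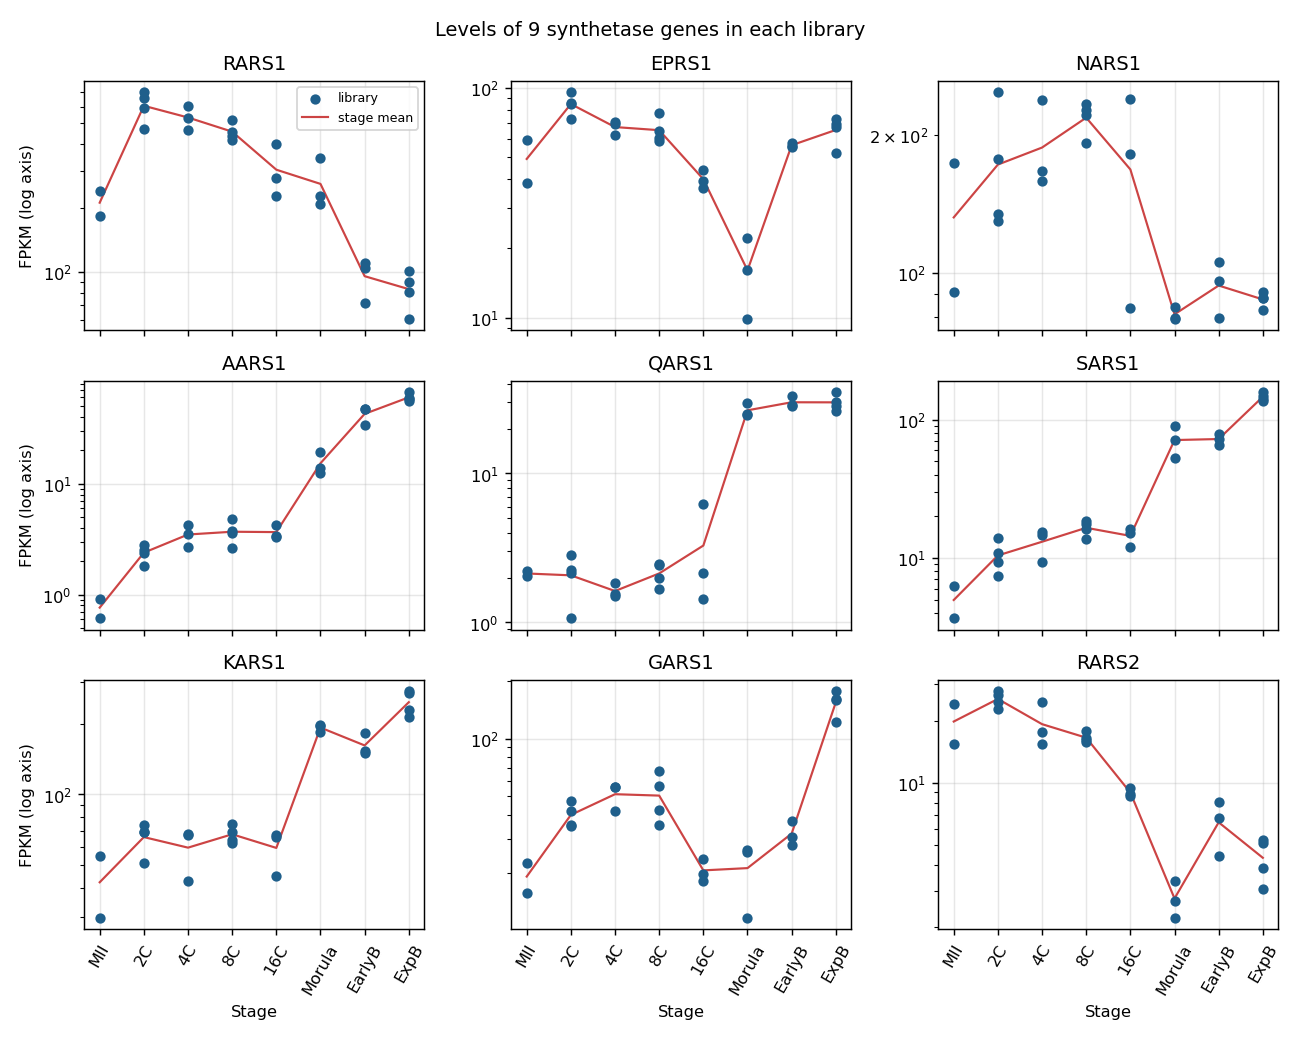
FPKM of 9 synthetase genes in each library (points) and the stage mean (line), on log axes, by stage. RARS1 and RARS2 end below their early levels, EPRS1 dips to 9.86 to 22.2 FPKM in morulae, and QARS1, SARS1 and KARS1 step up in morulae.

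Of the cytosolic enzymes outside the complex, those for alanine, serine and valine had the highest differences in ExpB against MII (5.12, 4.66 and 3.70). AARS1 had 12.5, 19.5 and 13.9 FPKM in morulae against 3.33, 3.39 and 4.29 in 16C (difference 1.79 ± 0.20, limma adjusted p = 1.1e-07), and 33.7, 47.2 and 47.1 FPKM in EarlyB (1.43 from morulae). In ExpB it averaged 60.1 ± 5.00 FPKM, and 0.766 ± 0.218 in MII, the highest difference of the 36 synthetases. SARS1 had 52.5, 71.3 and 89.6 FPKM in morulae against 12.003, 15.0 and 16.3 in 16C (difference 2.20 ± 0.23, limma adjusted p = 4.1e-08). It had 149, 136, 142 and 159 FPKM in ExpB, against 65.5, 78.8 and 72.8 in EarlyB. The ExpB libraries all lay above the EarlyB ones, and the difference of 1.01 is at the threshold: it was 0.94 without EarlyB replicate 1, 0.997 without ExpB replicate 1 and 0.97 without ExpB replicate 4, each ending the call. With the replicate number as a block it was 0.97.

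CARS1 was under 1 FPKM in every library up to 16C. It had 1.67, 4.02 and 3.68 FPKM in morulae against 0.113, 0.128 and 0.283 in 16C (1.76), and 15.6, 19.2 and 13.7 in EarlyB (2.101 from morulae), with no overlap at either step. VARS1 averaged 5.65 ± 1.36 FPKM in morulae and 1.44 ± 0.812 in 16C (1.48), and 23.5 ± 3.10 in EarlyB (1.89). HARS1, for histidine, averaged 8.64 ± 1.32 FPKM in morulae and 1.88 ± 1.07 in 16C (1.81). Its further rise in EarlyB (1.06) was not called without morula replicate 3 (0.96) or EarlyB replicate 3 (0.97), nor with median-ratio scaling (0.94). YARS1, for tyrosine, was higher in morulae than in 16C (16.9 ± 4.20 against 5.79 ± 3.30 FPKM, 1.48, and 1.85 without 16C replicate 3). It was also higher in 2C than in MII (4.60 ± 1.04 against 1.59 ± 0.0741 FPKM, 1.09, limma adjusted p = 0.014). That 2C call ended without MII replicate 1 (adjusted p = 0.21), MII replicate 2 (adjusted p = 0.057) or 2C replicate 1 (0.99), with the replicate block (0.98), and with median-ratio (0.93) or quantile scaling (0.79).

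WARS1, the tryptophan enzyme that interferon gamma induces in human cells, was the 1 synthetase called in 8C against 4C. It had 11.6, 11.8, 6.91 and 15.9 FPKM in 8C against 5.12, 6.03 and 3.99 in 4C (difference 1.02 ± 0.21, limma adjusted p = 0.02). The groups did not overlap, but the call ended when single libraries were left out. The adjusted p was 0.1 without replicate 1 of 4C, and the difference was 0.88 without replicate 3 of 4C, and 0.998, 0.99 and 0.86 without replicates 1, 2 and 4 of 8C. The call also ended with the replicate block (0.94) and with median-ratio (0.88) or quantile scaling (0.88). TARS1, for threonine, averaged 32.9, 33.2, 31.6, 24.9, 19.4, 20.4, 38.4 and 66.9 FPKM from MII to ExpB. It was higher in ExpB than in MII (1.01), and not without MII replicate 2 (0.87) or ExpB replicate 2 (0.98), nor on the TPM scale (0.60). NARS1, for asparagine, was the second most abundant member in early stages. It had 79.7, 84.3 and 79.3 FPKM in morulae against 239, 181 and 83.7 in 16C, the last value that of 16C replicate 3, and the difference of -0.91 was short of the threshold (limma adjusted p = 0.0097). Without 16C replicate 3 it was -1.35 and NARS1 was called lower (limma adjusted p = 9.7e-05).

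Phenylalanyl-tRNA synthetase is built from alpha and beta subunits in equal number, encoded by FARSA and FARSB. FARSB averaged 66.9, 93.2, 64.3, 62.1, 54.7, 60.5, 41.9 and 48.7 FPKM from MII to ExpB and was called at no step. FARSA averaged 0.862, 1.49, 2.14, 1.61, 1.31, 3.34, 10.01 and 7.85 FPKM and was higher in EarlyB than in morulae (8.77, 9.66 and 11.6 against 4.00, 3.55 and 2.48 FPKM, difference 1.35 ± 0.26, limma adjusted p = 0.00016). The ratio of FARSB to FARSA was 77.5 ± 14.6 in MII, 63.1 ± 12.02 in 2C, 36.0 ± 21.9 in 4C, 43.2 ± 17.7 in 8C, 71.6 ± 76.9 in 16C and 19.3 ± 8.60 in morulae, then 4.21 ± 0.207 (EarlyB) and 6.27 ± 1.35 (ExpB). The 16C mean rests on replicate 3, at 160.04, and was 27.4 ± 9.81 without it (n = 2). The enzymes of the multisynthetase complex were likewise most alike in EarlyB. The highest FPKM among them over the lowest was 119 ± 41.0 in MII, 359.5 ± 203 in 2C, 333 ± 74.3 in 4C, 219 ± 42.6 in 8C, 142 ± 46.5 in 16C and 31.9 ± 9.36 in morulae, then 8.25 ± 1.68 (EarlyB) and 13.0 ± 1.72 (ExpB). Over all 18 cytosolic genes, the SD across genes of log2(FPKM + 1) was 2.35 in MII, 2.20 in 16C, 1.61 in morulae, then 0.956 (EarlyB) and 1.17 (ExpB). These ratios and SDs are descriptions of RNA and were given no test.

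**Figure D4:**
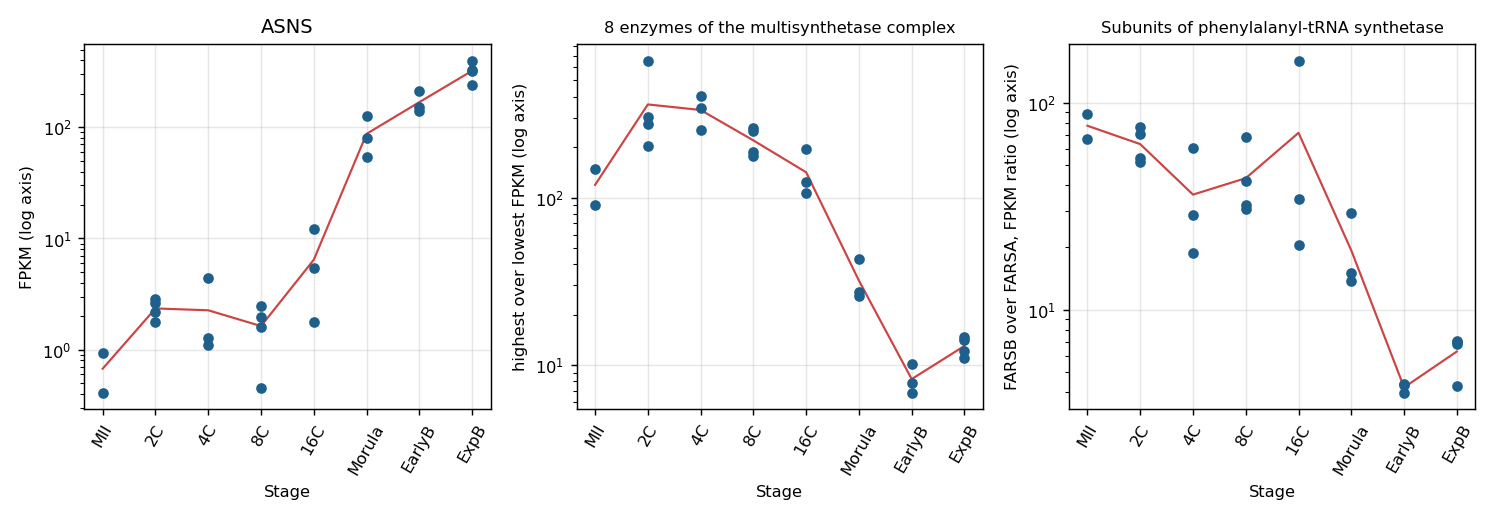
Left, ASNS in FPKM; middle, the highest over the lowest FPKM among 8 enzymes of the multisynthetase complex; right, FARSB over FARSA. Points are libraries, lines stage means, all on log axes by stage; both ratios are lowest in EarlyB, at 8.25 and 4.21.

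Both genes that serve the 2 compartments ended higher. KARS1, for lysine, had 198, 195 and 185 FPKM in morulae, against 67.1, 44.9 and 65.6 in 16C (difference 1.71 ± 0.22, limma adjusted p = 6e-07), with no overlap, and averaged 247 ± 30.2 FPKM in ExpB and 42.3 ± 17.6 in MII (2.57). GARS1, for glycine, was called at 3 single steps. It was higher in 2C than in MII (47.3, 35.2, 35.5 and 42.0 against 15.7 and 22.4 FPKM, 1.04), lower in 16C than in 8C (18.2, 23.7 and 19.8 against 56.7, 67.6, 42.3 and 35.3 FPKM, -1.22, limma adjusted p = 0.0015), and higher in ExpB than in EarlyB. At that last step it had 122, 177, 161 and 160.1 FPKM in ExpB against 27.8, 37.3 and 30.7 in EarlyB (difference 2.24 ± 0.25, limma adjusted p = 4.6e-07). The groups overlapped at none of the 3 steps. The 2C call ended without MII replicate 1 (adjusted p = 0.41) or 2C replicate 1 (0.96), and with median-ratio (0.79) or quantile scaling (0.82). GARS1 and SARS1 were the 2 synthetases called higher in ExpB than in EarlyB. With 16C and 8C fitted alone, the GARS1 decrease had an adjusted p of 0.063.

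Among the mitochondrial enzymes RARS2, again for arginine, led in early stages and fell. It had 2.21, 2.68 and 3.36 FPKM in morulae, against 9.42, 8.82 and 8.67 in 16C (difference -1.42 ± 0.21, limma adjusted p = 5.7e-06), with no overlap. In EarlyB it averaged 6.43 FPKM, and the EarlyB minus morula difference of 0.97 was short of the threshold. That difference was called without EarlyB replicate 1 (1.17) or morula replicate 3 (1.08). RARS2 averaged 4.33 ± 1.05 FPKM in ExpB and 19.8 ± 6.13 in MII (-1.96). RARS1 and RARS2 were thus the 2 synthetases of 36 that were lower in ExpB than in MII on the deposited scale, and both serve arginine. RARS2 held 50.5% of the summed mitochondrial FPKM in MII and 50.1% in 2C. That sum was 38.8, 50.9, 42.6, 40.5, 29.7, 42.2, 73.2 and 68.4 FPKM from MII to ExpB. MARS2, for methionine, was lower in 16C than in 8C (1.45, 0.263 and 1.17 against 3.55, 3.37, 2.93 and 3.39 FPKM, -1.19). That call ended without 16C replicate 2 (-0.90), and with 16C and 8C fitted alone (adjusted p = 0.082).

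Several mitochondrial synthetases were close to undetected before the morula. AARS2, for alanine, had 0 reads in both MII libraries, which allows up to 0.0340 and 0.0280 FPKM there, where 3 reads set the limit and only counting error is covered. It had 0.560, 0.243 and 0.892 FPKM in morulae, from 50, 24 and 75 reads, and was called in no contrast (0.70 in ExpB against MII). TARS2, for threonine, had 2, 7 and 4 reads in the 16C libraries, and 1.88, 1.25 and 0.527 FPKM in morulae against 0.0233, 0.0924 and 0.0499 in 16C (1.03). It rose again to 5.59, 6.22 and 4.68 FPKM in EarlyB (1.59 from morulae, limma adjusted p = 3.3e-06). LARS2, for leucine, had 4, 1 and 22 reads in 16C, and 1.91, 1.35 and 1.04 FPKM in morulae against 0.0276, 0.00780 and 0.162 in 16C (1.18). For TARS2 the morula call ended without morula replicate 1 (0.81) or morula replicate 2 (0.99) and with median-ratio (0.90) or quantile scaling (0.55), while that of LARS2 held with each library left out in turn and ended after quantile normalization (0.68). SARS2 averaged 1.97 ± 0.371 FPKM in ExpB and 0.0252 ± 0.00877 in MII (1.53), and PARS2 2.06 ± 0.772 in ExpB and 0.140 ± 0.0325 in MII (1.39). VARS2 averaged 1.01 ± 0.257 FPKM in ExpB and 0.0256 ± 0.0362 in MII and was not called (0.96), except without ExpB replicate 3 (1.05).

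FARS2, for phenylalanine, was higher in morulae than in 16C (2.81 ± 0.459 against 0.875 ± 0.300 FPKM, 1.03), but not without 16C replicate 2 (0.89), morula replicate 1 (0.999) or morula replicate 3 (0.95). NARS2, for asparagine, had 6.02, 5.27 and 4.53 FPKM in morulae against 0.786, 1.73 and 4.45 in 16C (1.07). All morula libraries lay above the 16C ones, and the call ended without 16C replicate 1 (0.70) or morula replicate 1 (0.98) and with those stages fitted alone (adjusted p = 0.11). Other scalings ended the morula calls of FARS2, at 0.99 (TPM), 0.85 (median-ratio) and 0.54 (quantile), of NARS2, at 0.92 (TPM), 0.86 (median-ratio) and 0.63 (quantile), and of CARS2, at 0.96 (TPM), 0.94 (median-ratio) and 0.70 (quantile). CARS2, for cysteine, had 1.46, 14.6 and 4.17 FPKM in morulae against 2.63, 2.105 and 0.674 in 16C, overlapping groups whose call (1.13) ended without morula replicate 2 (0.42) or 16C replicate 3 (0.79), with no filter on low values (adjusted p = 0.053) and with those stages fitted alone (adjusted p = 0.26). IARS2, for isoleucine, was higher in EarlyB than in morulae (5.06 ± 1.61 against 1.499 ± 0.350 FPKM, 1.25). EARS2 for glutamate, WARS2 for tryptophan and YARS2 for tyrosine were called higher in ExpB against MII and at no single step. EARS2 averaged 5.94 ± 0.308 FPKM in ExpB and 1.03 ± 0.152 in MII (1.78), WARS2 9.28 ± 1.55 in ExpB and 1.11 ± 0.423 in MII (2.29), and YARS2 9.83 ± 3.22 in ExpB and 2.50 ± 1.001 in MII (1.61). The 13 protein genes of the mitochondrial genome, whose messages these enzymes serve, took 0.574% to 1.93% of reads in libraries up to 16C, 3.99% to 5.31% in morulae and 8.58% to 10.9% in blastocysts, and the part of this shift in the FPKM of other genes was not tested.

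Cytosolic and mitochondrial enzymes were set side by side for the same amino acid, in 17 gene pairs, of which EPRS1 and FARS2 each enter 2. The cytosolic gene was higher in every library of the stage for 14 pairs at each stage from MII to 16C, for 15 in morulae and for all 17 in EarlyB and ExpB. The mitochondrial gene was higher in every library for 3 pairs in MII, those of cysteine, methionine and tyrosine, and for none from the morula on. For cysteine, CARS1 and CARS2 averaged 16.2 ± 2.79 and 5.69 ± 1.07 FPKM in EarlyB, and 0.175 ± 0.0938 and 1.80 ± 1.01 FPKM in 16C. For arginine the cytosolic gene stayed far above the mitochondrial one while both fell: RARS1 and RARS2 averaged 83.3 ± 17.4 and 4.33 ± 1.05 FPKM in ExpB, and 212 ± 39.2 and 19.8 ± 6.13 FPKM in MII. The summed cytosolic FPKM was 14.3 ± 2.17 times the mitochondrial sum in MII, 21.5 ± 4.65 times in 2C, 23.1 ± 4.65 times in 16C, 17.2 ± 1.82 times in morulae, 10.1 ± 0.458 times in EarlyB and 12.5 ± 0.915 times in ExpB. RARS1 and RARS2 weigh heavily in the early sums. The ratio of the class medians, which they do not set, was 4.17 ± 0.0364 in MII, 12.03 ± 3.52 in 16C, 8.94 ± 1.78 in morulae, then 6.63 ± 0.939 (EarlyB) and 10.2 ± 3.25 (ExpB). Members are not replicates, so the difference between the classes was not tested.

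**Figure D5:**
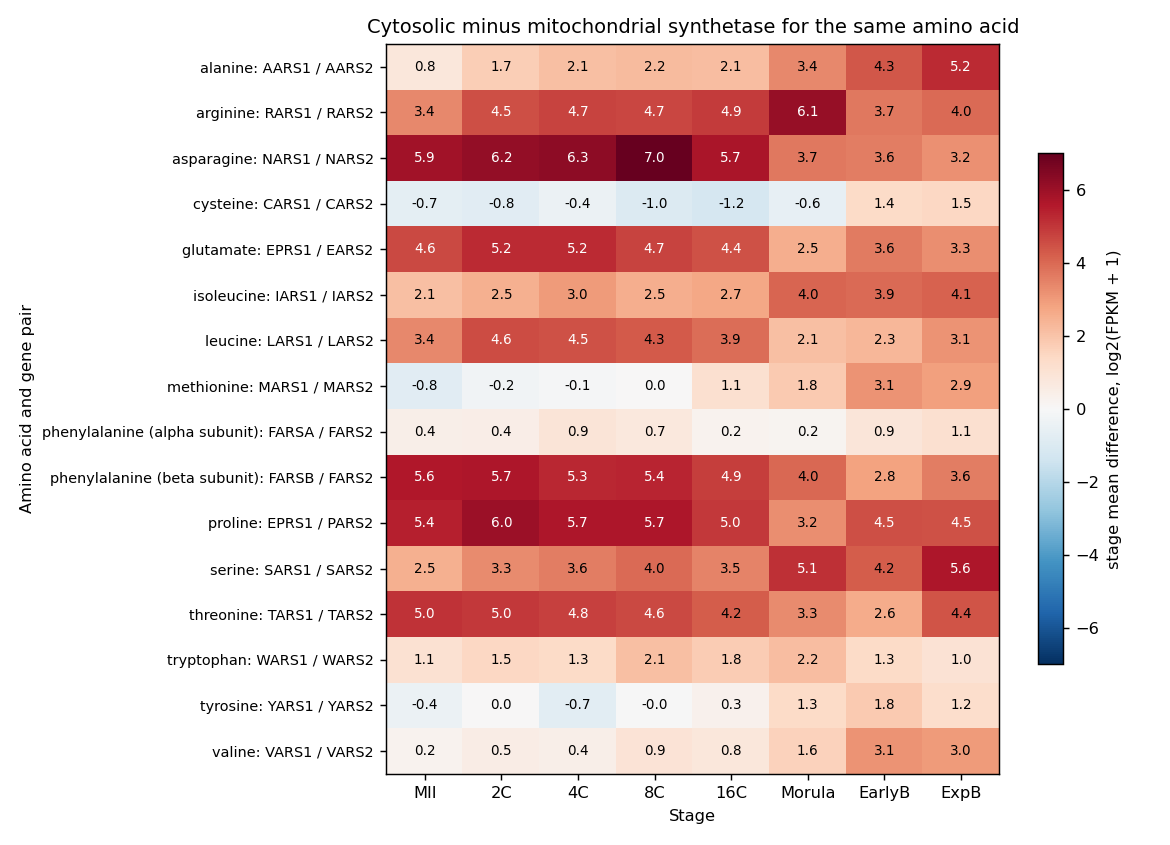
Cytosolic minus mitochondrial synthetase for 16 of the 17 gene pairs that serve the same amino acid, as the stage mean of the difference in log2(FPKM + 1), with colour and printed value. Red cells are higher in the cytosolic gene; from EarlyB on all 16 rows are red, and the few blue cells lie in the cysteine, methionine and tyrosine rows.

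ASNS had the widest range of all 37 members on the log2(FPKM + 1) scale. It averaged 0.675, 2.35, 2.26, 1.63, 6.44, 87.3, 168 and 322 FPKM from MII to ExpB. In morulae its libraries had 79.9, 127 and 54.4 FPKM, against 1.77, 5.47 and 12.1 FPKM in 16C embryos. The lowest morula was several times above the highest 16C library, which was replicate 3, and the difference was 3.75 ± 0.44 (limma adjusted p = 1.6e-07). Without 16C replicate 3 it was 4.30. ExpB libraries had 241, 321, 329 and 398 FPKM against 0.940 and 0.411 in MII, a difference of 7.59 ± 0.46 (limma adjusted p = 1.4e-12) and above that of every synthetase. The steps from morula to EarlyB (1.001, 95% interval 0.10 to 1.904, adjusted p = 0.063) and EarlyB to ExpB (0.93, 0.09 to 1.78, adjusted p = 0.073) were not called, although no library of the later stage lay below one of the earlier stage at either step. EarlyB against morulae was called in 4 of the fits with a library left out, without 4C replicate 1 (adjusted p = 0.046), 16C replicate 1 (0.029), 16C replicate 3 (0.031) or morula replicate 2 (1.31, 0.029). In 16C against 8C, ASNS was called at 1.30 ± 0.41 (limma adjusted p = 0.031), with 1.77, 5.47 and 12.1 FPKM in 16C and 1.98, 1.60, 2.49 and 0.454 FPKM in 8C, which overlapped. That call rests on few libraries. The adjusted p was 0.27 without replicate 3 of 16C and 0.072 without its replicate 2, 0.056 and 0.11 without replicates 2 and 4 of 8C, and 0.067 with the replicate block.

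Enzymes that share substrates with ASNS moved in both directions. GLUL, which makes glutamine, was higher in morulae than in 16C (116 ± 39.96 against 33.1 ± 3.63 FPKM, 1.73) and in ExpB than in MII (145 ± 11.2 against 29.9 ± 7.67 FPKM, 2.26). GLS2, a glutaminase that breaks glutamine down, was lower in ExpB than in MII (0.0859 ± 0.0506 against 10.8 ± 2.12 FPKM, -3.43). GOT2, the mitochondrial aspartate aminotransferase, was lower as well (-1.16), but not without MII replicate 1 (-0.91) or with the replicate block (-0.98). In morulae against 16C, ASRGL1, an asparaginase-like enzyme, was higher (1.203) and GLS2 was lower (-1.77). The ASRGL1 call ended without 16C replicate 2 (0.94) and on the other scales, at 0.88 (TPM), 0.97 (median-ratio) and 0.99 (quantile). GOT1 was called in neither contrast, and the asparaginase ASPG did not pass the filter on low values.

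Other genes of the amino acid response were read from a list of 28, of which 27 were tested. In ExpB against MII, 20 were higher and 2 lower, 81.5% called beside 53.7% of all genes. ATF4 itself averaged 53.5, 78.2, 92.6, 134, 159.6, 316, 472 and 458 FPKM from MII to ExpB (3.09 in ExpB against MII). The enzymes of serine and one-carbon metabolism PHGDH (4.93), PSAT1 (3.73), SHMT2 (2.82) and MTHFD2 (3.94) were higher, as were PCK2 (5.20), PYCR1 (2.96), GPT2 (1.10) and CTH (1.01). So were the amino acid transporter genes SLC7A5 (5.89), SLC3A2 (3.38), SLC38A2 (3.53), SLC1A5 (1.55), SLC7A1 (1.05) and SLC7A11 (1.36). The stress genes ATF3 (4.95), NUPR1 (5.21), TRIB3 (2.88), SESN2 (2.099) and STC2 (1.55) completed the higher group. ALDH18A1 (-1.82) and DDIT4 (-3.03) were lower. CTH lost its call without MII replicate 1 (0.66), ExpB replicate 2 (0.98), ExpB replicate 3 (0.96) or ExpB replicate 4 (0.98) and with the replicate block (0.81), SLC7A11 without MII replicate 1 (0.998) and SLC7A1 without ExpB replicate 1 (0.98). Other scalings ended the calls of GPT2, at 0.71 (TPM), 0.82 (median-ratio) and 0.97 (quantile), and of CTH, at 0.64 (TPM), 0.74 (median-ratio) and 0.77 (quantile), and quantile scaling those of SLC7A11 (0.95) and SLC7A1 (0.88).

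At the step where ASNS rose most, this list was called about as often as all genes. In morulae against 16C, 7 of the 27 were higher and 4 lower, 40.7% called beside 43.1% of all genes. SLC7A5 (2.16), SLC3A2 (3.10), MTHFD2 (2.94), NUPR1 (2.26), SESN2 (1.33), TRIB3 (1.11) and ATF4 (1.04) were higher. PSAT1 (-1.22), PSPH (-1.28), SLC7A11 (-1.15) and STC2 (-2.13) were lower. MTHFD2 averaged 37.5 ± 4.14 FPKM in morulae and 4.33 ± 2.50 in 16C, and SLC3A2 34.0 ± 7.44 FPKM in morulae and 3.06 ± 0.761 in 16C. The call of ATF4 ended under TPM (0.66), median-ratio (0.80) and quantile scaling (0.67), and without 16C replicate 3 (0.70) or morula replicate 2 (0.87). That of PSAT1 ended without morula replicate 2 (-0.90), and that of SLC7A11 without 16C replicate 1 (-0.96) or morula replicate 3 (-0.97). TRIB3 lost its call without 16C replicate 1 (0.89), 16C replicate 2 (0.93), morula replicate 2 (0.98) or morula replicate 3 (0.95), and with median-ratio (0.94) or quantile scaling (0.64), and SESN2 with quantile scaling (0.84). With morulae and 16C fitted alone, NUPR1 (limma adjusted p = 0.064), ATF4 (0.063), TRIB3 (0.089) and PSAT1 (0.063) were not called. In ExpB against EarlyB 11 of the 27 were higher and none lower, 40.7% called beside 17.7% of all genes (4.65% higher, 13.1% lower). Those 11 were CTH, MTHFD2, PCK2, PSAT1, PSPH, PYCR1, SHMT2, SLC1A5, SLC3A2, SLC7A11 and STC2. The list median was 0.77 there, beside -0.30 over all genes. The SLC1A5 call ended without EarlyB replicate 3 (0.82). That of PYCR1 ended without EarlyB replicate 2 or 3 or ExpB replicate 4, and on the TPM scale.

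Genes that act just before and after the synthetases were read in the same step, morulae against 16C. Of 7 cytosolic elongation factor genes tested, 6 were higher, where 43.1% of all genes were called and 28.1% were higher: EEF1A1 (2.29), EEF1B2 (1.37), EEF1D (3.05), EEF1G (2.54), EEF2 (2.47) and EIF5A (2.82). EIF5A2 was lower (-1.13), but not without 16C replicate 3 (-0.89) or morula replicate 2 (-0.83), nor with those stages fitted alone (limma adjusted p = 0.078). The call of EEF1B2 ended with TPM (0.99) or quantile scaling (0.95). Of 14 genes for eIF2, its kinases and partners, through which uncharged tRNA slows translation, 8 were higher and none lower, 57.1% called beside 43.1% of all genes. They were EIF2B2 (2.55), EIF2B3 (1.83), EIF2B4 (1.78), EIF2B5 (3.28), EIF2S1 (2.25), IMPACT (1.86), PPP1R15A (2.32) and PPP1R15B (2.18). The EIF2B3 call ended with morulae and 16C fitted alone (limma adjusted p = 0.074). EIF2AK4, the kinase GCN2 that senses uncharged tRNA, averaged 2.28 ± 0.364 FPKM in morulae and 2.64 ± 0.597 in 16C and was not called (-0.14).

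Of 21 genes for mitochondrial tRNA maturation and translation factors, 11 were higher and 3 lower in morulae than in 16C, 66.7% called beside 43.1% of all genes (28.1% higher, 15.0% lower). TUFM, the mitochondrial elongation factor Tu that receives charged tRNA, averaged 21.1 ± 2.49 FPKM in morulae and 3.89 ± 2.98 in 16C (2.38). TSFM, its exchange factor, chosen here after its values were seen, was lower over the whole period, at 32.6 ± 5.97 FPKM in ExpB and 339.9 ± 16.5 in MII (-3.36), while TUFM was at 39.7 ± 5.45 FPKM in ExpB and 0.818 ± 0.313 in MII (4.49). The others that were higher in morulae were GATC (1.80) and QRSL1 (2.07), subunits of the enzyme that makes mitochondrial glutaminyl-tRNA, and GFM1 (1.80), HSD17B10 (2.55), MTFMT (2.03), MTIF3 (1.28), MTO1 (1.41), TRMT10C (1.81), TRMU (1.05) and TRNT1 (1.28). GFM2 (-2.74), MTRF1 (-1.92) and PRORP (-1.35) were lower. TRMU was not called without morula replicate 3 (0.97), nor TRNT1 without 16C replicate 1 (0.87) or morula replicate 1 (0.97). Fitting morulae and 16C alone ended the calls of TRMT10C (limma adjusted p = 0.073) and TRNT1 (0.13). Quantile scaling ended the calls of MTIF3 (0.82), MTO1 (0.90), TRMU (0.54, and 0.89 under median-ratio scaling) and TRNT1 (0.96). Among 5 genes of proofreading, selenocysteine tRNA and related roles, DTD1 (1.86) and PSTK (1.55) were higher and DTD2 (-1.904) lower, beside 43.1% of all genes called. SEPSECS was not called, nor was TARS3, a threonine synthetase gene that the name rule did not take. The PSTK call ended with morulae and 16C fitted alone (limma adjusted p = 0.067).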

How the data were processed

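The submitters' processing notes name fastp (0.23.4), the aligner HISAT2 (2.1.0), SAMtools (1.9) and the read counter featureCounts (2.0.1). They give no genome build, annotation or strand setting. The table deposited by the authors holds FPKM for 30186 genes in 26 libraries. FPKM steps between genes gave back whole reads, and with them the assigned reads of each library. Genes with at least 1 FPKM in at least 2 libraries (15766) were fitted as log2(FPKM + 1) with limma 3.58.1 in R 4.3.3, with 8 stage means and a trended variance, and p-values were adjusted by Benjamini-Hochberg within each of 8 contrasts. No count test was run, and the gene length needed for a member's reads was recovered for 30 of 37 members. Members are named, and of the other gene lists the genes called in a described contrast, except 3 genes whose own values are not reported here; they remain in counts, medians and sums. Members and lists were chosen with earlier results of these data known. Alternatives were a pseudocount of 0.1, other filters and scalings, a replicate block, fits of 2 stages and leaving out each library. The genes AARSD1 and PRORSD1 were not analysed here. Reads shared with near-identical copies could not be told apart.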

Additional observations from a re-analysis of the deposited data

Results flagged for a closer look

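In groups of 4 libraries, 1 library of 5 mitochondrial synthetase profiles lay far from the other 3 by Dixon's criterion, out of 111 groups tested, where chance gives about 1 in 20. AARS2 was at 0.02 FPKM in 8C replicate 3 and at 0 in the other 8C libraries. LARS2 was at 0.3425 FPKM in 8C replicate 2, above 0.007 to 0.0333 in the others. EARS2 was at 1.233 FPKM in 8C replicate 3, below 1.598 to 1.656 in the others, and at 6.3968 FPKM in ExpB replicate 1, above 5.7286 to 5.8379. NARS2 was at 0.9564 FPKM in 2C replicate 4, below 1.4159 to 1.506. The AARS2 value stands for 2 reads, and with the other 3 libraries tied at 0 any value above 0 would have been flagged.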

How the results depend on the processing

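The number of cytosolic synthetases called in 2C against MII was 3 and became 5 with a pseudocount of 0.1, 5 on the TPM scale, and 1 with either median-ratio or quantile scaling. The single call in 8C against 4C became 0 with median-ratio scaling, quantile normalization, the replicate block or only 2 stages fitted, and ranged from 0 to 1 with 1 library left out. In ExpB against EarlyB the 1 cytosolic call became 2 under median-ratio scaling, 0 under quantile scaling or the replicate block, and ranged from 0 to 1 with 1 library left out. The count in 16C against 8C, 0, ranged from 0 to 1 likewise.

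For mitochondrial synthetases, 16C against 8C gave 1, which became 2 with a pseudocount of 0.1 and 0 with a filter of 5 FPKM or only 2 stages fitted, and ranged from 0 to 2 with 1 library left out. Morulae against 16C gave 6, which became 11 with a pseudocount of 0.1, 3 on the TPM scale, 2 under median-ratio scaling, 1 under quantile scaling, and ranged from 3 (without morula replicate 1) to 6. EarlyB against morulae gave 3, and 5 with a pseudocount of 0.1. ExpB against EarlyB gave 0, and 1 on the TPM scale, 3 with quantile normalization and 0 to 1 with 1 library left out. ExpB against MII gave 10, and 6 of the 9 members left by the filter of 5 FPKM. Apart from that filter, which tests fewer genes, the cause of these shifts was not tested. For both classes, shares of all genes called are given for the main fit only. Whether the calls over all genes shifted likewise is not shown here.

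The ASNS difference in 16C against 8C was 1.30 in the unfiltered table (limma adjusted p = 0.062), 1.22 with the replicate block (0.067) and 1.30 with only 2 stages fitted (0.29), none of them called, and 0.76 to 1.88 with 1 library left out. In EarlyB against morulae it was 1.35 and called after quantile normalization (0.0095), and 0.71 to 1.31 with 1 library left out, called in 4 of those fits (adjusted p = 0.029 to 0.046). In ExpB against EarlyB it was 1.31 and called with median-ratio scaling (0.017). In 4C against 2C it was -0.61 to 0.076, and in 8C against 4C -0.48 to 0.20, neither called in the full fit. Over 80 pairs of libraries with the same replicate number the median correlation of deviations was 0.004, with 13 over 0.1. Over 214 pairs with other numbers it was -0.005, with 21 over 0.1. Deviations from the mean of 2 to 4 libraries cancel within a stage, so these medians cannot decide whether replicate numbers pair the libraries.

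Limits come from 2 to 4 libraries a stage, from calls close to a difference of 1, and from mitochondrial members with few reads before the morula, where a pseudocount sets the size of a change. FPKM is relative to the RNA of its library, so the total RNA of an embryo is not seen.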
